A study of Xenopus laevis with 8 samples.

Results

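The transcription factors that specify endoderm in *Xenopus laevis* were followed in embryos whose mothers lacked *wnt11b*. They comprised the *sox17* genes, the Mix-type homeobox genes *mix1*, *mixer* and *bix1*, and the zinc-finger genes *gata4*, *gata5* and *gata6*. The genes were chosen by name, as every identifier of the deposited table that begins with sox17 and every .L or .S copy of *mix1*, *mixer*, *bix1.1*, *bix1.2*, *bix1.3*, *gata4*, *gata5* or *gata6*. This gave 19 of 49086 listed genes, made up of 4 *sox17* genes, 9 Mix-type genes and 6 *gata* genes. *X. laevis* is allotetraploid, and the 2 copies of a gene on the long and short chromosomes, its homeologs, are listed separately as .L and .S. The 19 genes included 8 complete homeolog pairs, together with *sox17b.1.S*, *sox17b.2.L* and *bix1.2.L*. In the RefSeq gene table of assembly v10.1, 17 of the 19 were found by symbol and *sox17b.2.L* was listed as another name of *sox17b.1.L*.

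Whole embryos were sequenced in 4 groups, each with 2 replicate pools of 3 embryos: M/Z embryos at stage 10.5 (mid-gastrula), +/Z embryos at stage 10.5, M/Z embryos at stage 9 (late blastula) and +/Z embryos at stage 9. M/Z embryos came from eggs of homozygous *wnt11b* mutant females, and +/Z embryos had wild-type mothers. Mutant sperm was used in both crosses, so that every embryo inherited a mutant paternal allele, and the mother and the embryo's own genotype differed together and cannot be told apart. The allele is a 13 bp deletion in the first exon of *wnt11b.L*, which counts per gene do not show, and the genotype of a library could therefore not be checked from its counts. The females or clutches behind the pools are not named in the sources used here, so p-values measure the spread between pools, which may be smaller than that between mothers.

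Libraries held between 24720921 and 37265579 counts, and 3 counts, the detection floor used here, corresponded to 0.0715 to 0.136 CPM, that is, counts scaled to a common library size. The floor and all counting intervals cover counting error only. Replicate libraries were further apart than counting error allows (chi-square divided by its degrees of freedom between 16.01 and 49.41) and were kept as separate samples. All 19 genes passed the filter on low counts over the 8 libraries, *gata4.L* and *gata4.S* only through the stage 10.5 libraries. M/Z replicate 2 at stage 10.5 stood below its partner in genes that normally rise between the stages. Of the 5928 genes that were higher at stage 10.5 in +/Z pools, 5115 were lower in M/Z replicate 2 than in M/Z replicate 1 at stage 10.5, with a median log2 difference of -0.36, against a median of 0 over all genes tested. The same difference had a median of -1.18 over the 6 *gata* genes, all of which were lower in replicate 2, of -0.43 over the *sox17* genes and of -0.24 over the Mix-type genes.

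In *Xenopus*, maternal VegT in the vegetal cells activates Nodal ligands and, together with Nodal signalling through Smad2 and FoxH1, turns on endodermal transcription factors after the mid-blastula transition. Mix-type proteins are paired-type homeodomain factors that bind DNA at Nodal-responsive promoters, and *mixer* promotes endoderm at the expense of mesoderm. Sox17 proteins are HMG-box factors that maintain endodermal fate and act with β-catenin. Gata4, Gata5 and Gata6 bind GATA motifs and act within the same network, in endoderm and in heart-forming mesoderm. In the RefSeq table of assembly v10.1, *bix1.3.L*, *bix1.1.L*, *mix1.L* and *mixer.L* are consecutive genes, as are *mixer.S*, *mix1.S* and *bix1.1.S*, and *sox17a* lies beside *sox17b.1* on both the .L and the .S chromosome.

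Most of these genes rose between the late blastula and the mid-gastrula, in both genotypes. The count was made over the 17 genes that also passed the filter in the stage 9 libraries alone, leaving out both *gata4* copies. Of these, *gata6.S* passed through its +/Z libraries (174 and 89 counts), its M/Z libraries having 3 and 6 counts at stage 9. Its rise in M/Z pools, counted below, is therefore a description. In M/Z pools 17 of 17 were higher at stage 10.5 than at stage 9 at an adjusted p under 0.05 (*edgeR* quasi-likelihood test with Benjamini-Hochberg adjustment over 25448 genes), and in +/Z pools 15 of 17, against 16.7% and 23.3% of all genes tested. The median log2 fold change over the 17 was 2.86 in M/Z pools and 2.65 in +/Z pools, against 0.02 and 0.01 over all genes. Scaling to library totals in place of TMM (the trimmed mean of M-values, which allows for composition) moved these all-gene medians to -0.18 and -0.29, and the share of higher among all calls to 37.5% and 34.4%, against 51.6% and 50.1% with TMM. On that scale *bix1.1.L* and *bix1.1.S* were not called in M/Z pools (adjusted p = 0.103 and 0.116, *edgeR*), nor *bix1.2.L* in +/Z pools (adjusted p = 0.397). The calls of *bix1.1.L* and *bix1.1.S* in M/Z pools and of *bix1.2.L* in +/Z pools were each lost when single libraries were left out, with adjusted p up to 0.129, 0.261 and 0.207, highest without M/Z replicate 1 of stage 9 for both *bix1.1* copies and without +/Z replicate 2 of stage 10.5 for *bix1.2.L*. The exceptions in +/Z pools were *bix1.1.L* and *bix1.1.S*, at 0.01 and 0.02 on the log2 scale (adjusted p = 0.958 and 0.962, *edgeR*), with the sign reversed by library totals (-0.30 each). The *bix1* copies share reads, and with all 5 summed *bix1* was higher at stage 10.5 in +/Z pools (0.76, adjusted p = 0.00467, *edgeR*), an alternative chosen after the data were seen.

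**Figure D1:**
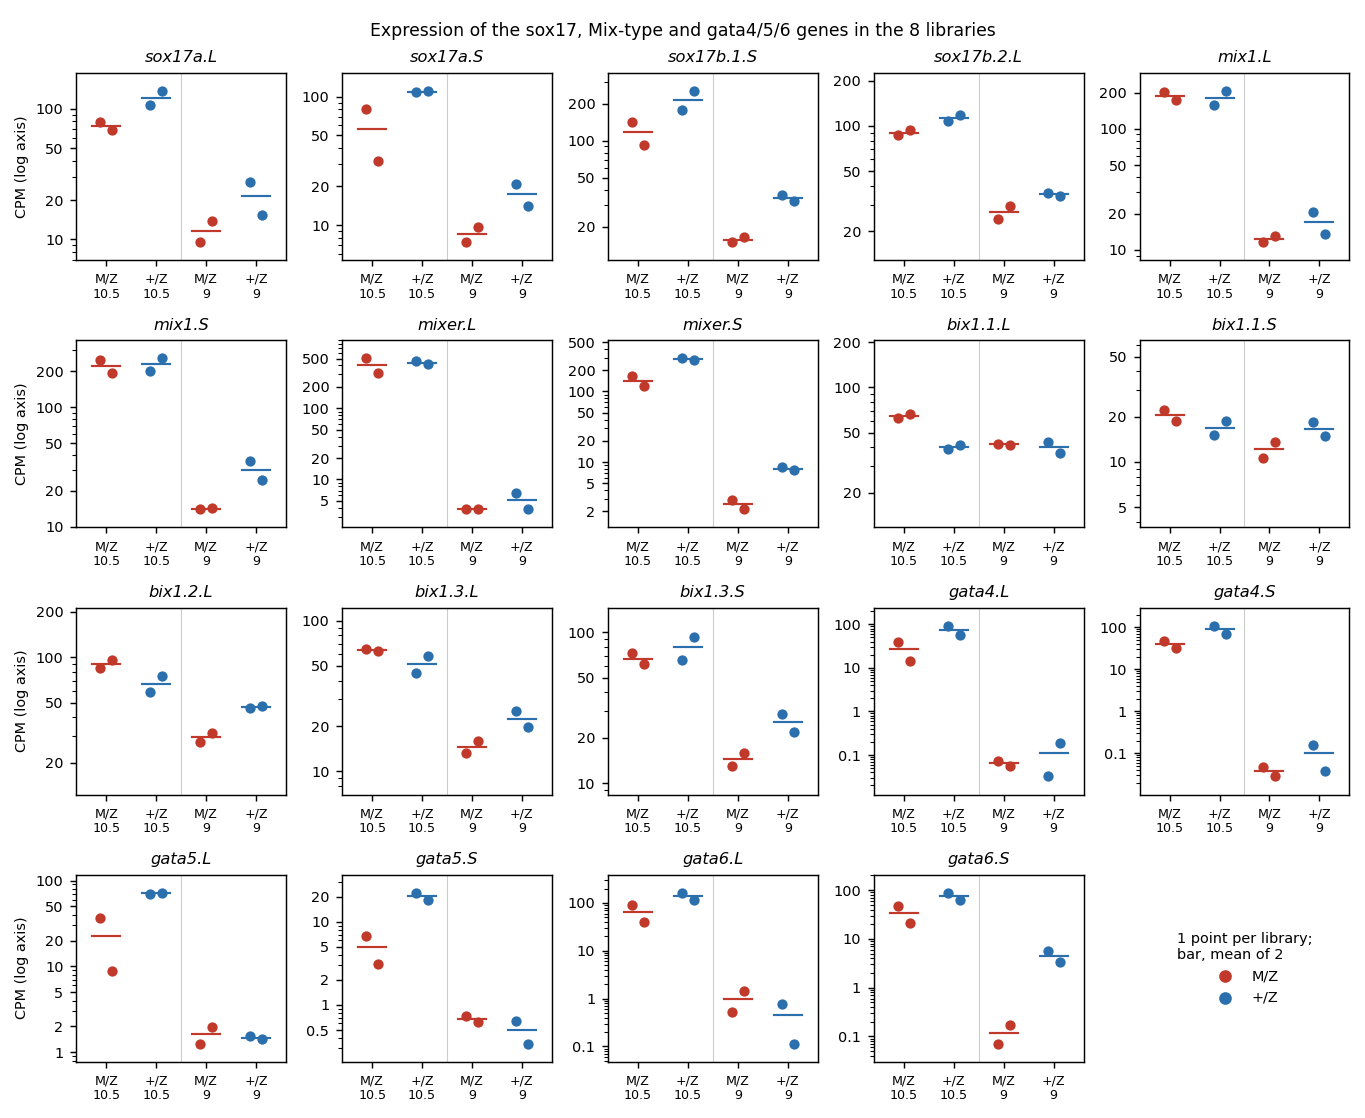
CPM of each of the 19 genes (log axis, scaled separately for each gene) in the 2 libraries of each group, with a bar at the mean. Most genes stand far higher at stage 10.5 than at stage 9, *bix1.1.L* stays between 36.5 and 66.2 CPM throughout, and *gata6.S* at stage 9 has 0.0715 and 0.169 CPM in M/Z pools against 5.61 and 3.40 CPM in +/Z pools.

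Among the Mix-type genes, the largest rise was that of *mixer*. *mixer.L* had 501 and 308 CPM at stage 10.5 against 3.81 and 3.83 CPM at stage 9 in M/Z pools, and 456 and 419 CPM against 6.48 and 3.89 CPM in +/Z pools. The log2 fold change was 6.73 ± 0.33 (s.e.) in M/Z and 6.39 ± 0.32 in +/Z pools (adjusted p = 9.28e-06 and 1.08e-05, *edgeR*). *mix1*, an immediate-early response gene of activin signalling, showed a smaller rise, with *mix1.L* at 201 and 172 CPM at stage 10.5 against 11.6 and 12.97 CPM at stage 9 in M/Z pools. In +/Z pools *mix1.L* had 159 and 205 CPM at stage 10.5 against 20.5 and 13.5 CPM at stage 9. The *bix1* genes, whose protein products are close relatives of Mix1, were already well above the floor at stage 9 and changed least. The log2 fold changes of the 5 *bix1* genes lay between 0.62 and 2.21 in M/Z pools and between 0.01 and 1.65 in +/Z pools.

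The *sox17* genes were intermediate, with log2 fold changes of 1.75 to 2.90 in M/Z pools and 1.69 to 2.65 in +/Z pools. Their summed level was 389 and 286 CPM at stage 10.5 against 56.1 and 69.1 CPM at stage 9 in M/Z pools, and 503 and 617 CPM against 121 and 96.1 CPM in +/Z pools.

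The *gata* genes were at 1.97 CPM or less in every stage 9 library, apart from *gata6.S* in +/Z pools. *gata4.L* had 1389 and 476 counts at stage 10.5 and 3 and 2 counts at stage 9 in M/Z pools, and 2438 and 1219 counts against 1 and 5 counts in +/Z pools. In CPM, this was a 431-fold rise in M/Z pools (95% counting interval 184 to 1328) and a 723-fold rise in +/Z pools (332 to 1972). Since both *gata4* copies passed the filter only through stage 10.5, their change between the stages is a description. *gata5.L* was above the floor at stage 9, with 53 and 70 counts in M/Z pools and 48 and 37 counts in +/Z pools. Its log2 fold change to stage 10.5 was 3.81 ± 0.57 in M/Z pools and 5.58 ± 0.62 in +/Z pools.

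**Figure D2:**
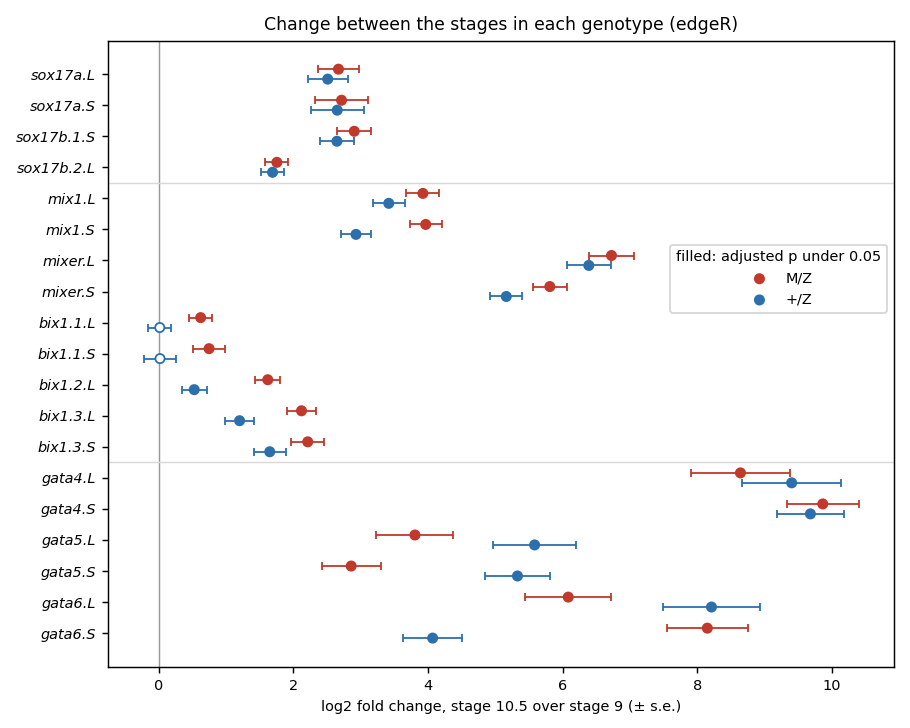
Log2 fold change of stage 10.5 over stage 9 (± s.e.) for each gene in M/Z and +/Z pools, filled where the adjusted p was under 0.05. Fold changes run from 0.01 for *bix1.1.L* in +/Z pools to 9.87 for *gata4.S* in M/Z pools; those of *gata5.L*, *gata5.S* and *gata6.L* are smaller in M/Z than in +/Z pools and that of *gata6.S* is larger.

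At mid-gastrula 2 of the 6 *gata* genes, 1 of the 4 *sox17* genes and 1 of the 9 Mix-type genes were called lower in M/Z pools, and 1 Mix-type gene was called higher. In all, 4 of the 19 were lower at an adjusted p under 0.05 (*edgeR*), against 6.39% of all genes tested, and 1 was higher, against 6.68%. The median log2 fold change was -0.72 over the 19 genes and 0.02 over all genes. With library totals the all-gene median was 0.22, and 70.5% of all calls were higher, against 51.1% with TMM. The paper reports delayed gastrulation in embryos from mutant mothers, M/Z embryos among them. In pools of whole embryos, fewer endodermal cells, less RNA per cell and later development cannot be told apart. The part of the delay in these differences was not tested.

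Each of the 6 *gata* genes had both M/Z libraries below both +/Z libraries at stage 10.5, an arrangement seen in 27.1% of all genes tested. Their median log2 fold change was -1.30. *gata5.S* fell furthest. It had 6.83 and 3.08 CPM in M/Z pools and 22.3 and 18.3 CPM in +/Z pools, a log2 fold change of -2.03 ± 0.39 (s.e., adjusted p = 0.0100, *edgeR*), or 4.09-fold lower. *gata4.S* had 47.4 and 32.2 CPM in M/Z pools and 109 and 68.5 CPM in +/Z pools, a log2 fold change of -1.16 ± 0.30 (adjusted p = 0.0320, *edgeR*). In neither gene did the libraries of the 2 genotypes overlap, and M/Z replicate 2 was the lowest in both.

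The remaining *gata* genes did not pass the threshold. *gata5.L* had 36.2 and 8.85 CPM in M/Z pools and 70.6 and 72.0 CPM in +/Z pools (log2 fold change -1.66 ± 0.50, adjusted p = 0.0565, *edgeR*). *gata4.L* had 40.0 and 14.7 CPM in M/Z pools and 93.2 and 55.3 CPM in +/Z pools (-1.44 ± 0.44, adjusted p = 0.0609). *gata6.L* had 91.2 and 39.9 CPM in M/Z pools and 163 and 114 CPM in +/Z pools (-1.08 ± 0.49, adjusted p = 0.171). *gata6.S* had 47.5 and 21.1 CPM in M/Z pools and 88.2 and 63.6 CPM in +/Z pools (-1.15 ± 0.38, adjusted p = 0.0770). In each of them M/Z replicate 2 was the lowest of the 4 libraries. With the .L and .S counts of each gene summed before the fit, *gata4* and *gata5* passed (log2 fold change -1.28 and -1.74, adjusted p = 0.0247 and 0.0359, *edgeR*) and *gata6* did not (-1.11, adjusted p = 0.119).

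The *gata* values at stage 10.5 depended on which M/Z library was kept. Without M/Z replicate 2, *gata5.S* was the only gene of the 19 still called at this stage, and the number called among all genes tested was 1500, against 3325 with all libraries. Without M/Z replicate 1 instead, 10 of the 19 were called, and 5280 of all genes tested. The fold changes of *gata5.L* over the fits that left out 1 library each ran from -3.01 to -0.97, and those of *gata5.S* from -2.72 to -1.56. The adjusted p of *gata5.S* was 0.0384 or less in every such fit (*edgeR*). *gata4.S* was not called without M/Z replicate 2 (-0.90, adjusted p = 0.151), without +/Z replicate 1 of this stage (-0.78, adjusted p = 0.123) or without either M/Z library of stage 9 (adjusted p = 0.0572 and 0.0574).

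The 4 *sox17* genes were also lower in both M/Z libraries than in both +/Z libraries, against 27.1% of all genes tested. *sox17b.1.S* had 142 and 91.7 CPM in M/Z pools and 178 and 252 CPM in +/Z pools, a log2 fold change of -0.88 ± 0.24 (adjusted p = 0.0387, *edgeR*). *sox17a.L* had 79.9 and 68.2 CPM in M/Z pools and 107 and 136 CPM in +/Z pools, and *sox17a.S* had 79.9 and 31.8 CPM against 109 and 110 CPM. Their log2 fold changes were -0.72 and -0.97 (adjusted p = 0.119 and 0.110, *edgeR*), and that of *sox17b.2.L* was -0.33 (adjusted p = 0.207). *sox17b.1.S* and *sox17b.2.L* are close copies between which *RSEM* divides shared reads, and their separate values are uncertain. With both summed, *sox17b* was lower in M/Z pools by a log2 fold change of -0.66 (adjusted p = 0.0401, *edgeR*), an alternative chosen after the data were seen. *sox17b.1.S* itself was called in 2 of the 8 fits that left out 1 library, those without M/Z replicate 1 and without +/Z replicate 1 of stage 10.5, and the adjusted p of the other 6 lay between 0.0648 and 0.183, highest without M/Z replicate 2 (-0.58).

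Among the Mix-type genes, *mixer.S* alone was called lower. It had 166 and 118 CPM in M/Z pools and 294 and 283 CPM in +/Z pools, a log2 fold change of -1.03 ± 0.20 (adjusted p = 0.0104, *edgeR*). *mixer.L* had 501 and 308 CPM in M/Z pools and 456 and 419 CPM in +/Z pools, overlapping ranges, with a log2 fold change of -0.11 (adjusted p = 0.802) that turned to 0.0730 with library totals. With both *mixer* copies summed, the call made for *mixer.S* was lost (-0.41, adjusted p = 0.218, *edgeR*). *bix1.1.L* was the 1 gene called higher, with 62.6 and 66.2 CPM in M/Z pools against 39.2 and 41.7 CPM in +/Z pools (log2 fold change 0.67 ± 0.17, adjusted p = 0.0325, *edgeR*). *bix1.2.L* and *bix1.3.L* also had both M/Z libraries above both +/Z libraries, an arrangement whose share over all genes tested was not counted. Neither was called (0.43 and 0.30, adjusted p = 0.144 and 0.353, *edgeR*). The other 7 Mix-type genes had log2 fold changes of -0.25 to 0.43, the median over all 9 being 0.04. With all 5 *bix1* genes summed at this stage the log2 fold change was 0.26 (adjusted p = 0.318, *edgeR*). With the libraries of this stage fitted alone, *mixer.S* and *gata5.S* remained called and *sox17b.1.S*, *gata4.S* and *bix1.1.L* did not (adjusted p = 0.112, 0.0661 and 0.123). With library totals *sox17b.1.S* and *gata4.S* lost their calls (adjusted p = 0.0677 and 0.0511). *mixer.S* missed the threshold without M/Z replicate 2 (-0.79, adjusted p = 0.0531) and was called in the other 7 such fits, whereas *bix1.1.L* was called only without M/Z replicate 1, its adjusted p in the other 7 lying between 0.0565 and 0.0978.

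**Figure D3:**
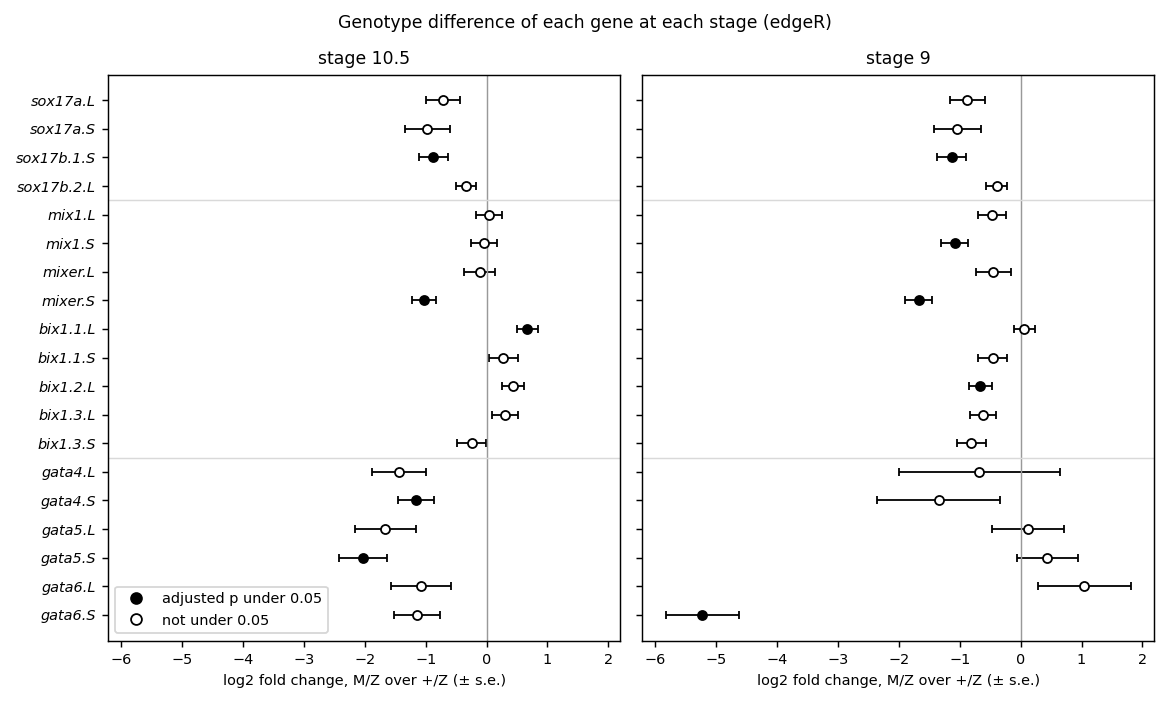
Log2 fold change of M/Z over +/Z pools (± s.e.) for each gene at stage 10.5 and at stage 9, filled where the adjusted p was under 0.05. At stage 10.5 the *gata* genes lie between -2.03 and -1.08 and the Mix-type genes between -1.03 and 0.67; at stage 9 *gata6.S* stands at -5.23, while the other *gata* genes lie between -1.34 and 1.05 with wide errors.

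In the late blastula *sox17b.1.S*, *mix1.S*, *mixer.S* and *bix1.2.L* were called lower in M/Z pools, *mixer.S* by 3.19-fold, and *gata6.S* was almost absent from them. At an adjusted p under 0.05 (*edgeR*), 5 of the 19 genes were lower, against 5.93% of all genes tested, and 0 were higher, against 6.01%. The 5 include *gata6.S*, whose difference is a description, as it passed the stage 9 filter only through its +/Z libraries. At an unadjusted p under 0.05 there were 10 of the 19, all of them lower, against 26.1% of all genes in either direction. *DESeq2* called 8, all of them lower, against 3582 of 38597 genes (9.28%). Those 38597 were all genes with any count, whereas the 19 had passed the low-count filter, so the shares are not over like genes. The median log2 fold change was -0.66 over the 19 genes, against 0 over all genes, and 15 of the 19 were negative.

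Both M/Z libraries lay below both +/Z libraries in 4 of 4 *sox17* genes and 8 of 9 Mix-type genes, against 31.8% of all genes tested. *sox17b.1.S* had 14.9 and 16.3 CPM in M/Z pools and 36.4 and 32.3 CPM in +/Z pools, a log2 fold change of -1.13 ± 0.24 (adjusted p = 0.0143, *edgeR*). *sox17a.L* had 9.53 and 13.8 CPM in M/Z pools and 27.3 and 15.3 CPM in +/Z pools (-0.88 ± 0.29, adjusted p = 0.0809), and *sox17a.S* had 7.36 and 9.65 CPM against 20.8 and 14.1 CPM (-1.04 ± 0.38, adjusted p = 0.114). For *sox17a.L*, +/Z replicate 2 lay near the higher M/Z library and +/Z replicate 1 well above it. For *sox17a.S*, +/Z replicate 2 lay between the M/Z libraries and +/Z replicate 1. *sox17b.2.L* differed least, with a log2 fold change of -0.40 (adjusted p = 0.167). *sox17b.1.S* was not called when any of the 4 stage 9 libraries was left out (adjusted p = 0.0610 to 0.119, *edgeR*), and with both *sox17b* genes summed the log2 fold change was -0.71 (adjusted p = 0.0317).

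*mixer.S* had the largest reduction of the Mix-type genes, with 2.88 and 2.14 CPM in M/Z pools and 8.44 and 7.64 CPM in +/Z pools (log2 fold change -1.67 ± 0.22, adjusted p = 0.00128, *edgeR*). It was called in each of the 8 fits that left out 1 library. *mix1.S* had 14.04 and 14.3 CPM in M/Z pools and 35.3 and 24.6 CPM in +/Z pools (-1.08 ± 0.22, adjusted p = 0.0112). *bix1.2.L* had 27.4 and 31.4 CPM in M/Z pools and 45.7 and 47.2 CPM in +/Z pools (-0.66 ± 0.18, adjusted p = 0.0450). The remaining Mix-type genes ranged from -0.81 for *bix1.3.S* (adjusted p = 0.0533) to 0.06 for *bix1.1.L*, the 1 gene of the family whose libraries overlapped between the genotypes. With all 5 *bix1* genes summed, the log2 fold change was -0.42 (adjusted p = 0.135, *edgeR*). *mix1.S* was not called without either M/Z library of stage 9 or without +/Z replicate 1 of stage 9 (adjusted p = 0.0928, 0.0828 and 0.115), and *bix1.2.L* was not called when any of the 4 stage 9 libraries was left out (adjusted p = 0.145 to 0.295) or with library totals (adjusted p = 0.0917).

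*gata6.S* was the most changed of the 19 genes. It had 3 and 6 counts in M/Z pools and 174 and 89 counts in +/Z pools, which is 0.0715 and 0.169 CPM against 5.61 and 3.40 CPM. The ratio of summed CPM was 39.6-fold lower in M/Z pools, with a 95% counting interval of 20.5 to 87.5, and the fitted log2 fold change was -5.23 ± 0.61 (adjusted p = 0.000541, *edgeR*). Because *gata6.S* passed the filter in the stage 9 libraries only through +/Z, where it is high, this difference is a description. Over the 8 fits that left out 1 library, its log2 fold change ran from -5.90 to -4.71. With both copies summed, since *RSEM* divides reads between them, *gata6* was lower by a smaller log2 fold change of -2.20 (adjusted p = 0.0246, *edgeR*). Reductions at least as large as the -5.23 of *gata6.S* by itself were called in 265 of the 25448 genes tested.

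The other *gata* genes had few counts at this stage, their libraries overlapped between the genotypes, and none passed the test (adjusted p = 0.435 to 0.931, *edgeR*). *gata6.L* had 22 and 51 counts in M/Z pools and 24 and 3 counts in +/Z pools, a CPM ratio of 2.00 (95% counting interval 1.27 to 3.23, which leaves out the spread between replicates). *gata5.S* had 31 and 22 counts in M/Z pools and 20 and 9 counts in +/Z pools. *gata4.L* and *gata4.S* had at most 5 counts in any stage 9 library, and their ratios of M/Z to +/Z CPM were 0.615 (95% counting interval 0.149 to 2.42) and 0.369 (0.0597 to 1.73), so that a difference was not detectable at this depth.

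Whether the .L and .S copies differed in their response was asked of the 8 pairs, as the genotype difference of log2 CPM of .L minus .S, fitted with *limma* over 4568 pairs. These shares are of counts and are not corrected for transcript length. At stage 10.5, 0 of the 8 pairs passed, against 16.8% of all pairs. An unadjusted p under 0.05 (*limma*) was reached by 2, a share that was not counted over all pairs. These were *mixer* (0.89 ± 0.25, adjusted p = 0.0620, *limma*) and *bix1.3* (0.54 ± 0.14, adjusted p = 0.0512). When only pairs with at least 10 counts of each copy in every library were fitted, both passed (adjusted p = 0.0428 and 0.0367). At stage 9, 3 of the 8 passed, against 17.9% of all pairs, namely *gata6*, *mixer* and *mix1*. The 3 include *gata6*, whose difference is a description, as that of *gata6.S* is.

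*gata6* changed the most. At stage 9 the .L copy took 88.0% (95% exact binomial interval 68.8 to 97.5) and 89.5% (78.5 to 96.0) of the pair's counts in M/Z pools, and 12.1% (7.92 to 17.5) and 3.26% (0.678 to 9.23) in +/Z pools. The ratio of .L to .S differed by 5.92 ± 0.49 on the log2 scale (adjusted p = 0.00175, *limma*), a size that 27 of the 4568 pairs reached or exceeded among those called. Since *gata6.S* passed the filter in the stage 9 libraries only through +/Z, where it is high, this difference is a description. At stage 10.5 the .L share was 65.8% and 65.4% in M/Z pools and 64.9% and 64.3% in +/Z pools, so that the 4 libraries lay within 1.51 percentage points. The +/Z pools at stage 9 were therefore alone in having mainly *gata6.S*.

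For *mixer*, the .L share was 75.2% and 72.4% in M/Z pools and 60.8% and 59.7% in +/Z pools at stage 10.5. At stage 9 it was 56.9% and 64.2% in M/Z pools and 43.4% and 33.8% in +/Z pools, a log2 difference of 1.28 ± 0.25 (adjusted p = 0.0237, *limma*). The .L share of *mixer* was thus higher in M/Z pools at both stages, as *mixer.S* was lower and *mixer.L* overlapped or lay just below. *mix1* had a .L share of 45.3% and 47.6% in M/Z pools and 36.7% and 35.4% in +/Z pools at stage 9 (log2 difference 0.62 ± 0.13, adjusted p = 0.0293, *limma*). At stage 10.5 it lay between 44.2% and 47.1% in all 4 libraries. The call of *mix1* at stage 9 was lost without any of the 4 stage 9 libraries (adjusted p = 0.113 to 0.174, *limma*), and that of *mixer* without M/Z replicate 1 (0.0678), M/Z replicate 2 (0.134) or +/Z replicate 2 (0.0968) of stage 9. Over the 8 such fits the *gata6* difference, a description, ran from 5.17 to 6.68 on the log2 scale.

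**Figure D4:**
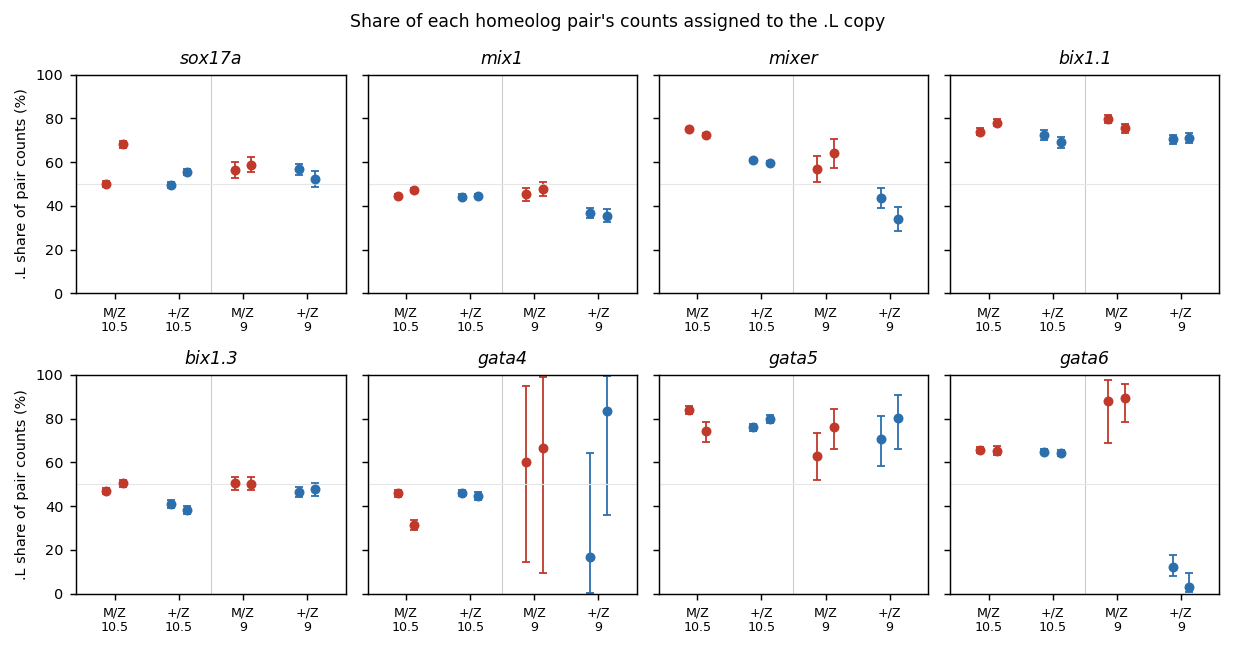
Share of each pair's counts assigned to the .L copy in every library, with exact 95% binomial intervals, for M/Z (red) and +/Z (blue) embryos. For *gata6* at stage 9 the 2 M/Z libraries stand at 88.0% and 89.5% and the 2 +/Z libraries at 12.1% and 3.26%, whereas all stage 10.5 libraries stand between 64.3% and 65.8%; for *gata4* at stage 9 the intervals span most of the axis.

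Whether the genotype effect itself differed between the stages was tested as an interaction. In *edgeR*, 0 of the 19 genes had an adjusted p under 0.05 in the test of the difference of effects, against 0.0472% (12 of 25448) of all genes. At an unadjusted p under 0.05 there were 8 of the 19, against 11.2% of all genes. *DESeq2* called 3 (*gata6.S*, *gata5.S* and *bix1.2.L*), against 278 of 38597 genes (0.720%), again without the low-count filter. Both of these counts include *gata6.S*, whose difference of effects rests on its stage 9 libraries and is a description. The effect at stage 10.5 minus that at stage 9 was positive in 9 of 9 Mix-type genes, between 0.34 and 1.09, and in the 4 *sox17* genes it lay between 0.06 and 0.26. The median over all genes tested was 0.03.

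*bix1.2.L* showed the largest of these among the Mix-type genes, with log2 fold changes of 0.43 at stage 10.5 and -0.66 at stage 9, a difference of 1.09 ± 0.26 (unadjusted p = 0.00187, adjusted p = 0.224, *edgeR*). *mix1.S* followed, with -0.05 at stage 10.5 and -1.08 at stage 9 (difference 1.04 ± 0.30, adjusted p = 0.303). Among the *gata* genes the difference was -2.47 ± 0.63 for *gata5.S* (adjusted p = 0.268), -2.13 ± 0.91 for *gata6.L* (adjusted p = 0.434) and -1.78 ± 0.77 for *gata5.L* (adjusted p = 0.436). *gata6.S* had the opposite sign, with a difference of 4.08 ± 0.74 (adjusted p = 0.129, *edgeR*). As it rests on the stage 9 difference of *gata6.S*, it is a description. Over the 8 fits that left out 1 library it ran from 3.38 to 4.76. Without M/Z replicate 1 of stage 10.5, the differences of *gata5.L* and *gata5.S* were -3.13 and -3.16.

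The maternal and Nodal-pathway genes that act upstream of the endoderm factors were examined as a list of 30 symbols, of which 44 identifiers were tested. At stage 9, 7 of them were lower in M/Z pools and 1 was higher, against 5.93% and 6.01% of all genes tested. The 7 include *nodal1.S* and *lefty.S*, both with 0 counts in the M/Z libraries of that stage, whose differences are descriptions. The list median log2 fold change was -0.37. At stage 10.5, 4 were lower and 1 higher, against 6.39% and 6.68% of all genes tested, with a list median of -0.13. The 4 include *lefty.S*, which passed the filter only through its +/Z libraries, so that its difference is a description. Without M/Z replicate 2 of stage 10.5, *lefty.S* alone was called lower at that stage and *sox7.L* higher, with a median of -0.0672. *vegt.S*, a copy of the T-box gene that activates endodermal transcription, had 610 and 452 CPM in M/Z pools and 761 and 804 CPM in +/Z pools at stage 10.5 (-0.56 on the log2 scale, adjusted p = 0.0487, *edgeR*). At stage 9 it had 201 and 213 CPM in M/Z pools and 321 and 327 CPM in +/Z pools (-0.64, adjusted p = 0.0294). The other copy, *vegt.L*, had 735 and 585 CPM in M/Z pools and 675 and 710 CPM in +/Z pools at stage 10.5 (-0.07, adjusted p = 0.807, *edgeR*). At stage 9 *vegt.L* was not called (-0.52, adjusted p = 0.0663). *eomes.S*, a T-box gene of mesendoderm, was lower at stage 9, with 7.63 and 8.50 CPM in M/Z pools and 20.7 and 16.99 CPM in +/Z pools (-1.23, adjusted p = 0.00286, *edgeR*). Its other copy, *eomes.L*, was not called at that stage (-1.02, adjusted p = 0.109, *edgeR*).

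Of the Nodal ligand genes, *nodal1.L* and *nodal2.L* were called lower in M/Z blastulae, as was *nodal1.S*, whose difference is a description. *nodal.L* (-0.34 on the log2 scale, adjusted p = 0.505, *edgeR*), *nodal5.2.L* (-0.42, 0.582), *nodal6.L* (-1.28, 0.0810) and *nodal6.S* (-1.56, 0.355) were not called. *nodal1.L* had 0.620 and 0.703 CPM in M/Z pools and 2.93 and 2.98 CPM in +/Z pools at stage 9 (-2.16 on the log2 scale, adjusted p = 0.00227, *edgeR*), and *nodal2.L* had 0.405 and 0.253 CPM against 2.06 and 0.993 CPM (-2.20, adjusted p = 0.0227). *nodal1.S* had 0 counts in both M/Z libraries and 32 and 24 counts in the +/Z libraries, at least 12.5-fold lower against a floor of 3 counts per library. *lefty.S*, a Nodal antagonist, had 0 counts in both M/Z libraries and 32 and 21 counts in the +/Z libraries at stage 9, at least 11.8-fold lower. At stage 10.5 *lefty.S* had 2 and 0 counts in M/Z pools and 341 and 267 counts in +/Z pools, a 423-fold lower level with a counting interval of 117 to 3503. Its other copy, *lefty.L*, was not called at stage 9 (-0.22 on the log2 scale, adjusted p = 0.692, *edgeR*). Nor was *lefty.L* called at stage 10.5, with 72.6 and 42.0 CPM in M/Z pools and 62.1 and 65.0 CPM in +/Z pools (-0.15, adjusted p = 0.755, *edgeR*). *ctnnb1.S*, encoding β-catenin, was lower at stage 9 (-0.55, adjusted p = 0.0319, *edgeR*), *acvr1b.S*, a type I activin receptor, at stage 10.5 (-0.75, adjusted p = 0.0421), and *nodal1.L* also at stage 10.5 (-1.03, adjusted p = 0.0386). The other copies, *ctnnb1.L* at stage 9 (-0.41, adjusted p = 0.137, *edgeR*) and *acvr1b.L* at stage 10.5 (0.13, adjusted p = 0.815), were not called. *tdgf1.3.L*, a Nodal co-receptor gene, was higher at stage 9 (0.55, adjusted p = 0.0490, *edgeR*).

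Other genes of early endoderm and of the anterior endomesoderm were examined as a further list. Of 22 identifiers tested, 8 were lower and 1 was higher at stage 10.5, against 6.39% and 6.68% of all genes tested. Their median log2 fold change was -1.03. At stage 9, 3 were lower, against 5.93% of all genes tested, with a median of -0.29. Without M/Z replicate 2 of stage 10.5, an alternative chosen after the data were seen, 2 of the 8 were still lower (*cer1.S* and *otx2.S*), *sox7.L* was still higher, and the median was -0.60. At stage 10.5 the genes called lower included *cer1.S*, *foxa1.L*, *foxa4.S*, *gsc.L*, *gsc.S*, *lhx1.S* and *otx2.S*. The other copies *foxa1.S* (-0.70 on the log2 scale, adjusted p = 0.408, *edgeR*), *foxa4.L* (-1.02, 0.0654), *lhx1.L* (-0.79, 0.172) and *otx2.L* (-1.18, 0.0569) were not called. *foxa1.L*, a forkhead factor of the gut, had 4.04 and 3.33 CPM in M/Z pools and 12.3 and 9.03 CPM in +/Z pools (log2 fold change -1.53, adjusted p = 0.0126, *edgeR*). *cer1.S*, a secreted inhibitor made in anterior endoderm, had 142 and 24.4 CPM in M/Z pools and 432 and 404 CPM in +/Z pools (-2.33, adjusted p = 0.0326). Several of the list, such as *gsc*, *otx2*, *cer1* and *lhx1*, are also genes of the organiser.

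At stage 9 the genes called lower were *foxa4.L* (-1.22, adjusted p = 0.0455, *edgeR*), *foxa4.S* (-1.38, adjusted p = 0.00560) and *pnhd.S* (-1.66, adjusted p = 0.0209). *sox7.L*, a relative of *sox17* that is present on both lists, was the gene called higher at stage 10.5, with 13.5 and 38.2 CPM in M/Z pools and 3.36 and 2.63 CPM in +/Z pools (log2 fold change 3.102, adjusted p = 0.00209, *edgeR*). At stage 9 it had 64.0 and 69.6 CPM in M/Z pools and 60.6 and 74.6 CPM in +/Z pools. The stage 9 libraries of *sox7.L* overlapped between the genotypes (log2 fold change -0.02), and M/Z replicate 2 at stage 10.5 was the higher of the M/Z pair. The summed level of the endoderm list was 1285 and 577 CPM in M/Z pools and 2039 and 1946 CPM in +/Z pools at stage 10.5.

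Markers of the other germ layers were counted in the same way at stage 10.5, where 6.39% of all genes tested were lower and 6.68% higher. Of 31 mesodermal identifiers tested, 2 were lower and 1 was higher in M/Z pools, with a median log2 fold change of -0.00 and a summed level of 2820 and 1826 CPM in M/Z pools against 2604 and 2426 CPM in +/Z pools. Of 34 ectodermal identifiers, 1 was lower and 1 higher, with a median of 0.05 and a sum of 6761 and 5619 CPM in M/Z pools against 6522 and 7019 CPM in +/Z pools. At stage 9 the mesodermal list had 2 lower and 1 higher with a median of -0.78. The ectodermal list had 1 lower and 6 higher with a median of 0.18. Among all genes tested at stage 9, 5.93% were lower and 6.01% higher. Without M/Z replicate 2 of stage 10.5 the medians at that stage were 0.22 for the mesodermal and 0.18 for the ectodermal list. The part of these differences in the results for the endoderm factors was not tested.

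For each family, the summed level was set against every other tested gene by the root mean square difference of log2 CPM, each centred on its mean over the 8 libraries. The gene nearest to the *sox17* sum was *hnrnpa1* (0.0828), an RNA-binding protein gene, followed by *gdf3.S* (0.114), a TGFβ ligand gene, *LOC108716425* (0.183), *gadd45a.L* (0.184) and *hnrnpa1.S* (0.188). *gdf3.S* had 183 and 141 CPM in M/Z pools and 204 and 259 CPM in +/Z pools at stage 10.5, and 29.1 and 30.9 CPM in M/Z pools and 55.4 and 40.7 CPM in +/Z pools at stage 9. The Mix-type sum was nearest to *slc35a2.S* (0.123), *slc7a3.L* (0.132), *Xelaev18030357m* (0.132), *azin2.S* (0.134) and *rhebl1.L* (0.147). The *gata* sum had no neighbour as close, its nearest being *LOC108705022* (0.265), *LOC108705994* (0.300), *p2ry11.L* (0.307), *pygm.S* (0.313) and *LOC108707975* (0.329), the last listed as *prkx.L* in the RefSeq table of assembly v10.1. With 8 libraries in 4 groups, such likeness describes these libraries only.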

How the data were processed

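RNA from pools of 3 embryos was made into libraries with a stranded mRNA kit and sequenced as paired 100-base reads. Using CSBB v3.0, the authors aligned reads with *bowtie2* to *X. laevis* genome 9.2, from which *RSEM* (1.3.0 in the submitters' processing notes) gave the deposited expected counts per gene, whole numbers that are not normalised. The annotation and strand setting are not given in the sources used here. *RSEM* divides reads that match several copies, so close copies and homeologs are uncertain.

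Genes were filtered with filterByExpr (25448 kept), normalised by TMM and fitted over all 8 libraries with *edgeR* 4.0.16 (glmQLFit, glmQLFTest) in R 4.3.3, p-values being adjusted by the Benjamini-Hochberg method and called under 0.05. Homeolog ratios were fitted with *limma* 3.58.1 (prior count 2). *DESeq2* 1.42.0 served as an alternative. CPM use TMM-scaled library sizes and are not per length, so levels are not compared between genes. No exact test of 2 against 2 libraries can reach 0.05. Named genes are the 19 members, genes called in a genotype comparison from lists of upstream and endoderm genes, and the 5 nearest profiles per family; 1 gene called in the endoderm list is not reported here by name, and *tbx6.S* was added after its values were seen. Members and lists were chosen with earlier results of these data known. RefSeq v10.1 gave names and gene order only.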

Additional observations from a re-analysis of the deposited data

How the results depend on the processing

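The direction of *mixer.S* and *gata6.S* at stage 9 and of *gata5.S* at stage 10.5 held in each fit that left out 1 library. With all libraries 5, 5 and 0 of the 19 genes were called at stage 9, at stage 10.5 and for the difference of effects. Library totals without TMM gave 3 at stage 10.5, where 2658 of 25448 genes tested were called higher and 1110 lower. With no filter the counts were 9, 11 and 6, with 5494 of all genes at stage 10.5 and 915 for the difference of effects. With at least 10 counts in every library they were 3 of the 14 members tested at each stage. Fewer genes were tested, and 1894 of 18867 were called at stage 9 and 6 for the difference. The all-gene numbers at stage 9 with no filter and at stage 10.5 with at least 10 counts are not reported here. *DESeq2* called 8, 8 and 3, against 3582 (9.28%), 4297 (11.1%) and 278 (0.720%) of 38597 genes. With only the libraries compared, 9 of the 17 members tested were called at stage 9 (7130 of 23028 genes) and 2 of 19 at stage 10.5 (1218 of 23997 genes). Where no construction of the alternative shows it, the cause was not tested.

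With the replicate block, 8 were called at stage 10.5, adding *gata4.L*, *gata5.L* and *gata6.S*, and *mix1* lost its homeolog call at stage 9 (adjusted p = 0.0510, *limma*). The number of all genes called with the block is not reported here. Same-numbered libraries did not deviate together (correlations -0.132 to 0.173), so there was no sign that the numbers pair the samples. A weak pairing could escape this check, as the clutches are not named. A call lost or gained with the block was therefore not read as a change of effect. The block turned the difference of effects of *sox17a.S* to -0.0753.

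Leaving out 1 library each gave 1055 to 3805 of all genes and 2 to 7 of the 19 at stage 9, 1500 to 5280 and 1 to 10 at stage 10.5, 3273 to 9272 of all genes and 17 to 19 of the 19 for the stage change in M/Z embryos, 7702 to 12443 and 16 to 17 in +/Z embryos, and 0 to 661 and 0 to 3 for the difference of effects. Homeolog ratios gave 222 to 925 pairs at stage 9 and 323 to 780 at stage 10.5.

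Each value that changed sign was one not called with all libraries, TMM and separate copies. Library totals turned *mix1.S* (0.14) and *mixer.L* (0.0730) at stage 10.5, and *bix1.1.L* and *bix1.1.S* (-0.30 each) in the +/Z stage change, which no filter also turned (-0.0263 and -0.0237). Summing homeologs turned *bix1.1.L* (-0.0772) and *gata6.L* (-2.20, called as the sum) at stage 9, *mix1.L* (-0.00970) and *bix1.3.L* (-0.00629) at stage 10.5, and the differences of effects of *gata4.S* (-0.28) and *gata6.L* (1.098). Summing close copies turned *bix1.1.L* at stage 9 (-0.42) and *bix1.3.S* at stage 10.5 (0.26).

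Leaving out 1 library each gave sign changes within these ranges. At stage 9 they were -0.0609 to 0.20 for *bix1.1.L*, -1.51 to 0.92 for *gata4.L*, -1.96 to 0.0163 for *gata4.S* and -0.23 to 0.41 for *gata5.L*. At stage 10.5 they were -0.13 to 0.23 for *mix1.L*, -0.24 to 0.14 for *mix1.S*, -0.50 to 0.21 for *mixer.L* and -0.48 to 0.0355 for *bix1.3.S*. For the +/Z stage change they were -0.11 to 0.15 for *bix1.1.L* and -0.15 to 0.18 for *bix1.1.S*. For the difference of effects they were -0.32 to 0.51 for *sox17a.L*, -0.75 to 0.58 for *sox17a.S*, -0.10 to 0.54 for *sox17b.1.S*, -0.0674 to 0.21 for *sox17b.2.L*, -0.0831 to 0.65 for *mixer.L*, -2.36 to 0.0697 for *gata4.L* and -1.18 to 0.79 for *gata4.S*. For homeolog ratios they were -0.99 to 1.58 (*gata4*) and -0.79 to 0.0545 (*gata5*) at stage 9, and -0.14 to 0.96 (*sox17a*), -0.86 to 0.0274 (*gata4*) and -0.31 to 0.58 (*gata5*) at stage 10.5. Depth limits *gata4* at stage 9, with at most 5 counts in a library.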

Other observations

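A few genes of the lists were nearly on or off between the genotypes, as *gata6.S* was at stage 9; they were chosen after their values were seen. *tbx6.S*, a T-box gene of mesoderm, had 9.30 and 10.1 CPM in M/Z embryos and 0.0322 and 0 CPM in +/Z embryos at stage 9, the opposite direction to *nodal1.S* and *lefty.S*, which had 0 counts in both M/Z libraries of that stage. It was also called higher in M/Z embryos at stage 10.5 (*edgeR*).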
